A study of Rattus norvegicus with 46 samples.

Results

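Gene expression was compared between the top and the bottom of the duodenal villus in normal rats. The comparison rests on 8 of the 46 Affymetrix arrays of the study. They are the arrays titled +/+ Top and +/+ Bottom 1 to 4, which give 1 array of each segment from each of 4 rats, so that the segments were compared within each animal. The rats were Wistar animals of genotype ++, 1 month old, on a normal diet. All rats were fasted overnight. A piece of duodenum was frozen and cut across the crypt-villus axis in a cryostat, and the sections from the upper part and from the lower part of the villus were pooled separately for RNA. Each sample is therefore a slice of whole mucosa, with lamina propria, immune cells and vessels beside the epithelium.

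The other 36 villus arrays came from 18 rats in 5 groups. Of the ++ rats, 4 were made iron deficient with a low iron diet and repeated bleeding (2 to 3 ml every 3 days over 4 weeks), and 3 were repleted after the same treatment, with ferric ammonium citrate at 50 µM in the drinking water over 3 days. The rest were Belgrade (bb) rats on a Wistar background, which carry a mutation of the iron transporter gene Slc11a2: 4 kept on the normal diet and, among those given iron, 4 treated over 3 days and 3 over 6 days. The iron-deficient and iron-repleted rats were labelled 1 month old, as the controls were, and no label gives the age of the Belgrade rats. These groups served to estimate the spread between rats and, in the last comparison, as a contrast to the control rats. A pair of crypt arrays from 1 further ++ rat was left out.

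Epithelial cells of the small intestine are born in the crypts, where stem cells and their dividing daughters lie next to Paneth cells, and they move up the villus as they mature. Absorptive cells acquire digestive enzymes, transporters and the machinery for packing dietary fat on the way, and are shed at the tip. The duodenum is the main site of iron absorption: iron enters through the apical membrane and leaves through the basolateral one. A stroma that runs from the crypt base into the villus core supplies signals such as BMP antagonists, which are made around the crypts.

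Levels are given as log2 of the normalised array intensity, and differences as top minus bottom on the same scale, so that a difference of 1 is a 2-fold higher level at the top. The values of the 4 rats are listed in the order of their numbers. Rats 1 and 2 could hardly be told apart by their arrays: log2 differences between them had a robust SD of 0.147 at the top and 0.168 at the bottom, against 0.231 to 0.729 for pairs of rats that were not near-identical. Rats 1 and 2 were averaged and counted as 1 sample, which leaves n = 3. A female-specific transcript, Xist, was at 14.5 and 14.6 in the arrays of rat 4 and between 6.10 and 9.26 in those of rats 1 to 3, so that rat 4 differed from the others on both of its arrays. Array medians before normalisation were 634 to 701 at the top and 734 to 1012 at the bottom, with the highest in the bottom array of rat 3.

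Of 26517 probe sets tested, 6847 (25.8%) differed between top and bottom at an adjusted p under 0.05 (limma on the within-rat difference, Benjamini-Hochberg). Of these, 3303 were higher at the top (12.5% of those tested) and 3544 at the bottom (13.4%). The direction was the same in 4 of 4 rats for 6718 of the called probe sets. The 4 top arrays did not overlap the 4 bottom arrays for 6120 of them, and 32.6% of all tested probe sets had segments that did not overlap. More than 2-fold differences were called for 2395 probe sets higher at the top and 2462 higher at the bottom, and more than 8-fold ones for 212 and 127. On the deposited scale, without quantile normalisation, the median difference over all probe sets moved from -0.03 to -0.23, and 38.0% rather than 48.2% of the calls were higher at the top. Counted by gene, with the brightest probe set for each, 1879 of 12975 genes (14.5%) were higher at the top and 2559 (19.7%) at the bottom, 34.2% together, with a median difference of -0.13. In whole-tissue samples of this kind, fewer cells of a type and less RNA per cell cannot be told apart.

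**Figure D1:**
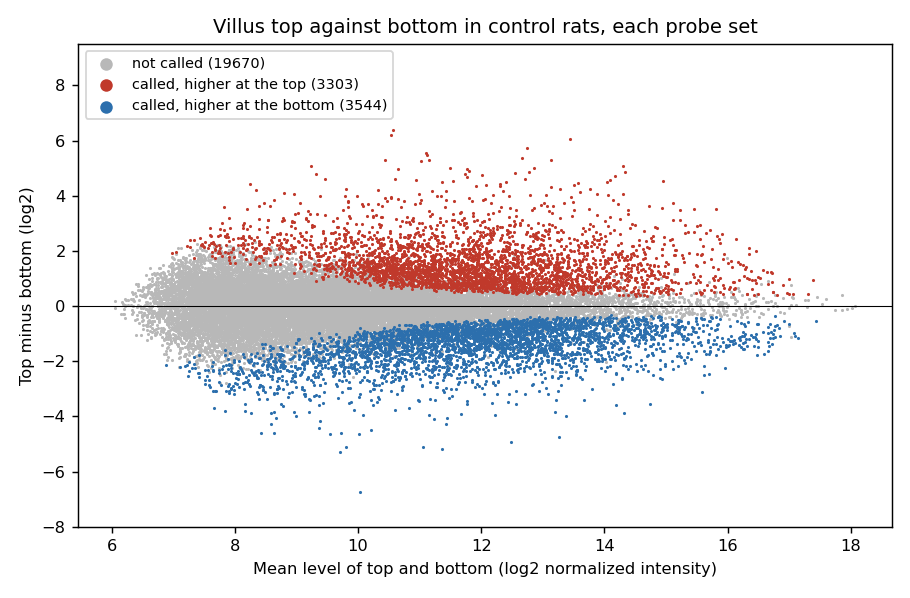
Each point is a probe set of the 26517 tested; the horizontal axis is its mean log2 level over top and bottom of the control rats and the vertical axis the log2 difference top minus bottom, with calls higher at the top in red, calls higher at the bottom in blue and the rest in grey. The 3303 probe sets called higher at the top and the 3544 called higher at the bottom lie on both sides of 0 across the range of levels.

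The 15 genes ranked steepest towards the top differed by 4.53 to 6.39. Areg, which encodes the EGF receptor ligand amphiregulin (probe set 1369871_at), was at 13.2, 13.1, 13.7 and 14.5 at the top and at 5.94, 8.56, 5.88 and 9.00 at the bottom. Its difference was 6.39 ± 0.47 (SE, n = 3; adjusted p = 3.87e-09, limma). The lowest top array lay above the highest bottom array. The bottom arrays of rats 1 to 3 lay below 8.99, the 40th percentile of an array, so the size of the difference depends on the low end of the scale. A gene is called dim in a segment here where all 4 of its arrays lie below that level. Apoa4, an apolipoprotein of chylomicrons (1368520_at), was at 17.1, 17.1, 15.8 and 16.5 at the top and at 11.7, 11.9, 9.06 and 10.3 at the bottom, a difference of 6.06 ± 0.40 or 66.9-fold. Rat 3 had the lowest level in both segments, and the segments did not overlap. Cldn4, a tight junction claudin, had the smallest p of the named genes: it was at 15.06, 15.22, 14.97 and 15.52 at the top and at 9.98, 9.84, 10.4 and 10.7 at the bottom (4.86 ± 0.22, adjusted p = 5.20e-12).

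Of the same 15 genes, Cda (cytidine deaminase) differed by 5.53 ± 0.38, Aqp7 (a water and glycerol channel) by 5.37 ± 0.39 and Car2 (carbonic anhydrase) by 4.40 ± 0.37 at its brighter probe set. Slc16a3, a lactate carrier, differed by 4.99 ± 0.44 and the γ-glutamyl transferase Ggt1 of the brush border by 4.83 ± 0.44. Clca4 was at 17.1 to 17.3 at the top and at 12.5 to 12.8 at the bottom. Rdh7, a retinol dehydrogenase, was at 14.2, 14.2, 13.2 and 14.2 at the top. It was dim at the bottom (7.84 to 8.73), so the size of its difference (5.47 ± 0.53) depends likewise on the low end of the scale. Gzmb, a granzyme of cytotoxic lymphocytes, differed by 4.58 ± 0.52 at its brighter probe set and by 5.28 ± 0.59 at the other, which was dim at the bottom. The remaining members were Stfa3, Sectm1b, Gprc5a and the apical ferric reductase gene Cybrd1, with differences between 4.86 and 5.74.

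The 15 genes ranked steepest in the opposite direction differed by -3.81 to -6.73. Grem1, a secreted BMP antagonist of the stroma around crypts (1369113_at), was at 11.4, 11.9, 15.2 and 13.3 at the bottom and dim at the top, between 5.94 and 7.53. Its difference was -6.73 ± 0.94 (SE, n = 3; adjusted p = 7.78e-06, limma), with the highest bottom level in rat 3. Pla2g2a, a secreted phospholipase of Paneth cells, was at 14.9, 14.9, 16.5 and 15.5 at the bottom and at 9.86, 9.62, 11.4 and 11.5 at the top (-4.76 ± 0.78). The α-defensin genes Defa24 and RatNP-3b differed by -3.86 ± 0.42 and -3.94 ± 0.39. Defa24 reached 15.6, 15.6, 16.8 and 16.4 in the bottom arrays. In the top arrays it was at 11.4, 11.7, 12.7 and 12.9, so that this transcript of Paneth cells, which lie at the crypt base, was measured in both segments. How much crypt tissue the segment labelled as the bottom of the villus held was not tested.

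Matrix genes of fibroblasts among the 15 were Dpt (-4.92 ± 0.58), Mfap4 (-5.29 ± 0.54), Postn (-5.17 ± 0.64), Ogn (-4.07 ± 0.50) and Aspn (-4.49 ± 0.76). Grem1, Mfap4, Aspn, Fndc1, Hmcn2, Dnph1 and Orc6 were dim at the top, so the sizes of their differences depend on the low end of the scale. Postn varied between rats at the top, with 6.20, 7.03, 10.4 and 9.33 against 12.9, 13.2, 14.9 and 13.8 at the bottom. Smoc2, a stem cell marker of the crypt that is also made in stroma, was at 14.99, 15.01, 15.85 and 15.23 at the bottom and at 11.3, 10.9, 11.7 and 11.4 at the top (-3.98 ± 0.44). Orc6, a subunit of the origin recognition complex, was dim in all top arrays and at 8.43, 10.09, 10.05 and 9.95 at the bottom (-3.81 ± 0.57). That was not its brightest probe set, and of the 3 for this gene 2 were called, both higher at the bottom. Fndc1, Hmcn2, Ppp1r1b and Dnph1 completed the set, with differences from -3.94 to -4.61. In none of the 30 genes did the 4 top arrays overlap the 4 bottom arrays, which the way they were ranked favours. Each of the 30 had the same sign of difference in 18 of 18 rats of the other groups, whose spread, though not their direction, entered the fit that called the genes.

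**Figure D2:**
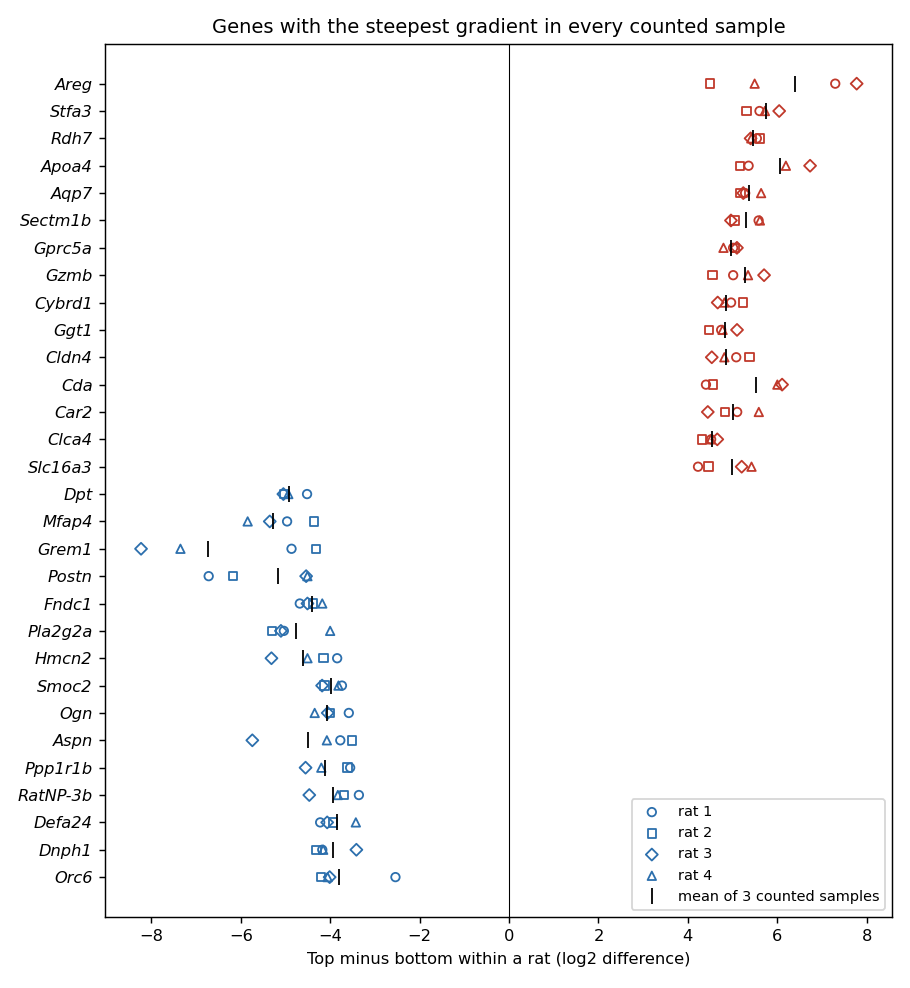
Log2 difference top minus bottom within each of the 4 control rats (symbols) for the 15 steepest genes at each end, with the mean of the 3 counted samples as a black bar. All rats lie on the same side of 0 for every gene shown, with rats 1 and 2 apart from rats 3 and 4 for Grem1 and Postn.

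Digestive enzymes of the brush border were all higher at the top. All 12 measured members of the list of membrane-bound peptidases, disaccharidases and phosphatases were called, with a median difference of 3.28. Over the 3 counted samples the median was 1.89 (rats 1 and 2), 4.75 (rat 3) and 3.48 (rat 4). The dipeptidase Ace was at 16.6, 16.6, 16.5 and 16.5 at the top and at 12.8, 12.9, 11.5 and 11.2 at the bottom (4.70 ± 0.36). Treh, which splits trehalose, was at 14.5 to 14.8 at the top and at 11.1, 11.6, 9.02 and 10.1 at the bottom (4.48 ± 0.63). The meprins Mep1a and Mep1b differed by 4.47 ± 0.45 and 3.62 ± 0.43. Intestinal alkaline phosphatase, Alpi, was already at 15.5, 15.5, 13.2 and 15.1 at the bottom and reached 17.1 to 17.3 at the top (2.62 ± 0.53). The levels at the top were close in all rats, and the difference between rats lay in the bottom arrays, where the mean of the list was 13.5, 13.6, 10.8 and 12.1. Only Enpep, an aminopeptidase, had overlapping segments, with 14.8 in the top array of rat 3 and 15.3 in the bottom array of rat 1. Enpep is also the member whose sign was shared by the fewest of the other rats (15 of 18).

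The structural proteins of microvilli followed in smaller steps. Of 15 measured members, 12 were higher at the top, 1 was higher at the bottom and 2 were not called, with a median difference of 1.43. The protocadherins Cdhr2 and Cdhr5, which link neighbouring microvilli, differed by 3.56 ± 0.42 and 2.70 ± 0.38, the actin bundler Espn by 2.95 ± 0.36 and the membrane linker Ezr by 1.43 ± 0.18. Villin, Vil1, was at 16.8, 16.7, 16.9 and 16.7 at the top and at 15.8, 15.9, 14.7 and 15.5 at the bottom (1.43 ± 0.26). The keratins went in different directions. Krt20, the keratin of mature villus cells, was higher at the top by 2.64 ± 0.32 and Krt8 by 0.44 ± 0.14, while Krt18 was at 14.8, 14.7, 15.4 and 15.2 at the bottom against 13.2 to 13.4 at the top (-1.76 ± 0.35).

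**Figure D3:**
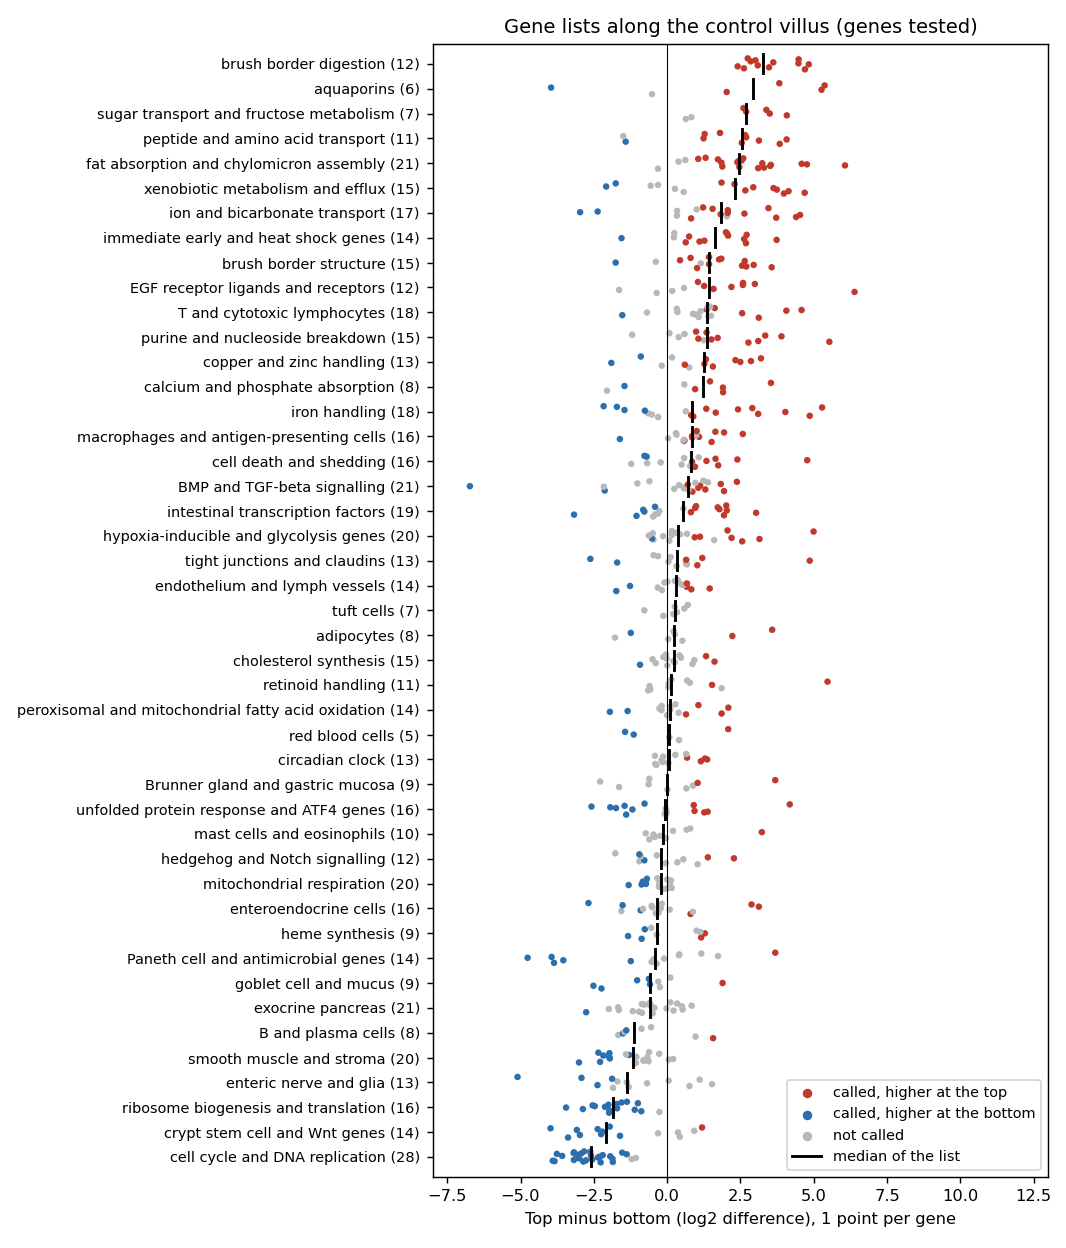
Log2 difference top minus bottom of each tested member of each gene list (points), with the list's median as a black bar, in control rats; red points were called higher at the top, blue points higher at the bottom, grey points were not called, and the number of genes follows each list's name. Digestion lies wholly above 0 (12 of 12 called) and the cell cycle wholly below (26 of 28); the medians of retinoid handling, clock, endothelium, red cells and Brunner gland turn sign on the deposited scale, and those of mitochondrial respiration and the unfolded protein response with median centring.

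Nutrient transporters were higher at the top in each of the lists fixed for sugars, peptides and fat. For sugars, 5 of 7 genes were called higher at the top and none at the bottom (median 2.70). The sodium-glucose cotransporter Slc5a1 was at 15.41, 15.44, 14.03 and 15.06 at the top and at 13.6, 13.2, 9.88 and 11.1 at the bottom (3.38 ± 0.59). The fructose carrier Slc2a5 differed by 2.70 ± 0.54, with a bottom level of 13.27 in rat 1 above the top level of 12.96 in rat 3, so its segments overlapped. Pck1, the enzyme that commits carbon to gluconeogenesis, was at 17.03, 17.02, 13.96 and 16.78 at the top and at 13.1, 12.7, 10.6 and 12.1 at the bottom (4.08 ± 0.63). The basolateral glucose carrier Slc2a2 differed by 3.50 ± 0.82, and without rat 3 its value of 2.57 was no longer called. The fructose breakdown enzymes Khk (0.83 ± 0.48) and Fbp1 (0.64 ± 0.35) were not called.

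For peptides and amino acids, 9 of 11 genes were higher at the top and 1 at the bottom (median 2.54). The proton-coupled peptide transporter Slc15a1 was at 16.5, 16.7, 15.2 and 16.4 at the top and at 13.38, 13.54, 10.96 and 12.23 at the bottom (3.84 ± 0.36). Slc3a1, the heavy subunit of the cystine transporter, differed by 4.07 ± 0.38 and its light subunit Slc7a9 by 1.80 ± 0.40. The basolateral pair Slc3a2 and Slc7a7 differed by 1.24 ± 0.23 and 2.66 ± 0.35. Slc1a1, a carrier of acidic amino acids, was the only member called higher at the bottom (-1.41 ± 0.45). It was at 10.04 there in rat 3 and higher in the other rats, against 8.54 to 9.64 at the top. The lowest difference of the list, -1.50, belonged to another member, which was not called.

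In fat absorption, 18 of 21 genes were higher at the top and none at the bottom (median 2.46). They included the lipoproteins Apob (3.54 ± 0.40), Apoa1 (3.51 ± 0.47), Apoc3 (4.59 ± 0.66) and Apoc2 (4.77 ± 0.76). The fatty acid receptor Cd36 differed by 3.24 ± 0.39 and the cholesterol receptor Scarb1 by 2.60 ± 0.23. The sterol exporters Abcg5 and Abcg8 differed by 3.10 ± 0.44 and 3.30 ± 0.65. Of the enzymes that rebuild triglyceride, Mogat2 differed by 2.54 ± 0.49, Dgat2 by 2.39 ± 0.34 and Dgat1 by 1.85 ± 0.30. The fatty acid binding proteins stood apart from each other. Fabp2 was at 17.5, 17.5, 17.2 and 17.4 at the top and at 15.98, 15.91, 13.81 and 15.01 at the bottom (2.44 ± 0.47). Fabp1 was at 17.98 to 18.11 at the top and already at 17.8, 17.8, 17.5 and 17.7 at the bottom (0.39 ± 0.39, not called). Mttp, which loads lipid onto apolipoprotein B, was not called either (0.62 ± 0.33).

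Genes of nucleoside breakdown were higher at the top for 10 of 15 members and at the bottom for none (median 1.34). Besides Cda these were the nucleoside carriers Slc28a1 (3.90 ± 0.55) and Slc28a2 (3.34 ± 0.31), the phosphodiesterase Enpp3 (3.11 ± 0.26) and adenosine deaminase, Ada, at 17.2, 17.2, 16.8 and 17.3 at the top and 14.5, 14.4, 13.7 and 14.9 at the bottom (2.77 ± 0.38). Of 17 ion transport genes, 11 were higher at the top, 2 at the bottom and 4 were not called (median 1.82). The apical sodium-proton exchanger Slc9a2 differed by 3.45 ± 0.35, and the peptide uroguanylin, Guca2b, and its receptor Gucy2c by 2.63 ± 0.43 and 2.07 ± 0.18. The 2 genes higher at the bottom were Slc12a2 and Kcnq1. Slc12a2, the basolateral chloride loader, was at 15.6, 15.6, 16.1 and 15.9 at the bottom and 13.4 to 13.6 at the top (-2.37 ± 0.22), and the potassium channel Kcnq1 differed by -2.97 ± 0.62. Cftr, the apical chloride channel, was not called (0.33 ± 0.26), with overlapping segments between 13.3 and 14.1.

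Among water channels, 4 of 6 were higher at the top and 1 at the bottom (median 2.93). Aqp3 was at 13.1, 13.2, 13.7 and 14.1 at the top and dim at the bottom, and Aqp8 was at 14.8, 14.7, 12.6 and 13.9 at the top against 11.3, 11.3, 8.77 and 9.71 (3.82 ± 0.89). Aqp4 ran the other way, with 12.3, 12.2, 13.3 and 13.9 at the bottom and 8.70 to 9.61 at the top (-3.96 ± 0.76). In calcium and phosphate absorption, 5 of 8 genes were higher at the top and 1 at the bottom (median 1.21). The apical calcium channel Trpv6 was at 14.1 to 14.3 at the top and 11.06, 10.64, 10.27 and 10.95 at the bottom (3.54 ± 0.28). The calcium pump Atp2b1 differed by 1.91 ± 0.18, while the cytosolic carrier protein S100g, at 17.8 to 17.9 at the top, differed by 0.95 ± 0.35, just past the threshold (adjusted p = 0.0498, limma).

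Iron genes did not move as one group: of 18 tested, 10 were higher at the top, 4 at the bottom and 4 were not called, with a median of 0.85. Those of the absorption route were all higher at the top. Cybrd1 (1377369_at), which reduces ferric iron at the apical membrane, was at 16.9, 16.9, 16.5 and 16.8 at the top and at 11.94, 11.70, 11.86 and 12.01 at the bottom, a difference of 4.86 ± 0.52 or 29.1-fold (adjusted p = 3.12e-07, limma). Both segments were tight, and each counted sample gave between 4.67 and 5.10. Slc11a2, the apical importer of ferrous iron that is mutated in Belgrade rats, was at 16.5, 16.4, 17.1 and 16.7 at the top and at 15.2, 15.2, 13.7 and 14.1 at the bottom (2.42 ± 0.47). Its counted samples ranged from 1.21 in rats 1 and 2 to 3.40 in rat 3. Slc40a1, the basolateral exporter ferroportin, was at 17.09, 17.04, 16.73 and 17.08 at the top and at 14.5, 14.4, 13.3 and 14.5 at the bottom (2.90 ± 0.35). Heph, the ferroxidase hephaestin that works with it, was at 16.6 to 16.8 at the top and at 14.36, 14.38, 13.01 and 13.33 at the bottom (3.10 ± 0.32). The segments overlapped for none of these 4 genes.

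Slc46a1, a folate transporter also described as a heme carrier, showed the widest iron-list difference, with 14.5, 14.5, 12.9 and 13.9 at the top and 9.12, 9.48, 8.69 and 7.53 at the bottom (5.28 ± 0.44). Ireb2, an RNA-binding sensor of cell iron, differed by 4.03 ± 0.28, and Fbxl5, which targets it for degradation, by 0.82 ± 0.18. Heme oxygenase Hmox1 differed by 1.66 ± 0.41 and the transporter Slc39a14 by 1.33 ± 0.21. In the opposite direction, the transferrin receptor Tfrc, which takes iron from plasma, was at 15.5, 15.3, 15.8 and 15.8 at the bottom and at 12.2, 12.1, 14.6 and 13.7 at the top (-2.17 ± 0.36). Its bottom levels were close, and its top levels spread over rats. The cytosolic iron chaperones Pcbp1 and Pcbp2 differed by -0.76 ± 0.13 and -1.45 ± 0.18, and the endosomal reductase Steap3 by -1.71 ± 0.50. Aco1 (-0.31 ± 0.19) and Hfe (-0.65 ± 0.78) were not called. Of 9 genes of heme synthesis and export, 2 were higher at the top, including the first enzyme Alas1 (1.16 ± 0.19), and 3 at the bottom, including Cpox (-1.33 ± 0.18), with a median of -0.36.

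Copper and zinc genes were higher at the top for 8 of 13 members and at the bottom for 2 (median 1.27). The apical zinc importer Slc39a4 was at 15.5, 15.5, 14.3 and 14.8 at the top and at 12.6, 12.1, 11.1 and 11.6 at the bottom (3.20 ± 0.27). The copper exporter Atp7a differed by 1.56 ± 0.19 and the importer Slc31a1 by 1.32 ± 0.29. The metallothionein Mt2A (-1.90 ± 0.29) and superoxide dismutase Sod1 (-0.90 ± 0.17) were higher at the bottom. In xenobiotic metabolism, 9 of 15 genes were higher at the top and 2 at the bottom (median 2.30). The efflux pumps Abcc2, Abcg2 and Abcb1a differed by 4.69 ± 0.42, 4.14 ± 0.51 and 3.98 ± 0.28, and the cytochromes Cyp3a18 and Cyp3a9 by 3.63 ± 0.55 and 2.94 ± 0.40. Gsta1, a glutathione transferase, ran the other way (-2.08 ± 0.44).

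Genes of dividing cells were higher at the bottom. Of 28 cell cycle and replication genes tested, 26 were called higher at the bottom and none at the top, with a median of -2.61, and the median was close in every counted sample (-2.72, -2.48 and -2.39). Mki67, a marker of cycling cells, was at 14.5, 14.4, 14.4 and 14.5 at the bottom and at 11.4, 11.3, 11.1 and 11.7 at the top (-3.09 ± 0.45). Top2a, a topoisomerase of dividing cells, was at 13.99 to 14.12 at the bottom and at 10.97, 10.53, 10.98 and 10.85 at the top (-3.17 ± 0.42). The cyclins Ccna2 (-3.90 ± 0.54), Ccnb2 (-3.18 ± 0.38) and Ccnb1 (-2.77 ± 0.38) belong to S phase and mitosis, and the G1 cyclin Ccnd1 differed by -2.56 ± 0.27. The mitotic kinase Plk1 differed by -3.76 ± 0.56, and Cdk1 was at 12.8 to 13.1 at the bottom and at 9.40 to 10.5 at the top (SE of the difference 0.68). The replicative helicase subunits Mcm2 to Mcm7 were all called, from -1.94 for Mcm4 to -3.58 for Mcm5. Pcna, the sliding clamp of replication, was at 14.8 in the top array of rat 3 and 13.9 to 14.0 in the others, and differed least among the called members (-1.38 ± 0.35). Cenpa (-1.07 ± 0.91) and Ccne1 (-1.21 ± 0.47) were not called.

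Promoters of mitotic genes are known for CCAAT boxes and for the CHR element TTTGAA, and the promoters of a cyclin, its kinase and Top2a are shown because these members moved together and hold both motifs. They are RefSeq sequences on GRCr8, from 250 bases before to 50 after the start of the gene, 5′ to 3′ on the gene's strand. Capitals mark CCAAT and TTTGAA or their reverse complements ATTGG and TTCAAA. Ccnb2 lies at chr8:79981609-79981908 on the minus strand, Cdk1 at chr20:19265043-19265342 on the plus strand and Top2a at chr10:84473044-84473343 on the minus strand.
Ccnb2: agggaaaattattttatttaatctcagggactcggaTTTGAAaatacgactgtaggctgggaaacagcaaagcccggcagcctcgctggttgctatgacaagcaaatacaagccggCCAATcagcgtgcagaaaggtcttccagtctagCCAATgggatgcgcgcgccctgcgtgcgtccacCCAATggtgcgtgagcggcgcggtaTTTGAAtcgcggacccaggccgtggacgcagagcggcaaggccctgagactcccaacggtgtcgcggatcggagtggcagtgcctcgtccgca
Cdk1: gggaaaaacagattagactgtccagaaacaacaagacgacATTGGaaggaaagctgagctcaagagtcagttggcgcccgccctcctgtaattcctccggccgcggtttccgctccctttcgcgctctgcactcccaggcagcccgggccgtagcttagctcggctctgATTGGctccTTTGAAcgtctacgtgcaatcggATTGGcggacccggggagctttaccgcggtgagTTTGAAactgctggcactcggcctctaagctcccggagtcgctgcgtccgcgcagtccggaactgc
Top2a: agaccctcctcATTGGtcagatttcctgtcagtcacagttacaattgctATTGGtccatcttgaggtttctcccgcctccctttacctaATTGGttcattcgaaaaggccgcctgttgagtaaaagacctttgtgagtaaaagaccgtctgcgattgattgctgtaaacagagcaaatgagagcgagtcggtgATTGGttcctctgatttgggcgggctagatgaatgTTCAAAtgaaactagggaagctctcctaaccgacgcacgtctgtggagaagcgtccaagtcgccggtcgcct
The Ccnb2 window holds 3 CCAAT and 2 TTTGAA matches, that of Cdk1 3 and 2, and that of Top2a 4 and 1. Of the 28 cell cycle genes 23 had a promoter in the table. CCAAT was in 17 of these 23 (73.9%) against 37.5% of all 33469 promoters of the same length, TTTGAA in 10 (43.5%) against 18.3%, and both in 8 (34.8%) against 7.41%. In the digestion list CCAAT was in 4 of 10 promoters and TTTGAA in 2, and in the fat absorption list in 6 and 1 of 13. The motifs overlap in no letter of these 3 windows, both strands were searched, and these motifs were chosen after the values of the genes had been seen. The HNF4 element CAAAGTCCA was in 0.391% of all promoters and in none of the 11 promoters found for each end of the 15 steepest genes. The CDX element TTTATG was in 12.7% of all promoters, in none of 11 at the top end and in 3 of 11 at the bottom end (Pla2g2a, Aspn and Orc6). A match is a description of the letters.

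Ribosome production and translation genes were higher at the bottom for 15 of 16 members and at the top for none (median -1.84; by counted sample -2.08, -1.74 and -1.76). The nucleolar proteins Fbl, Nop58, Nop56 and Ncl differed by -2.87 ± 0.25, -2.54 ± 0.26, -2.47 ± 0.33 and -2.12 ± 0.21. Myc, a driver of ribosome production, was at 11.92, 12.23, 13.03 and 13.04 at the bottom and at 9.58, 8.00, 9.55 and 9.45 at the top (-3.45 ± 0.49). Ribosomal proteins differed less, from Rplp0 (-0.999 ± 0.15) to Rpl3 (-1.72 ± 0.20). The elongation factor Eef1a1 was the member that was not called (-0.26 ± 0.12).

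Stem cell and Wnt genes were higher at the bottom for 9 of 14 members and at the top for 1 (median -2.08). Lgr5, the marker of crypt base stem cells, was at 10.64, 10.50, 10.96 and 12.03 at the bottom and at 9.46, 9.38, 7.71 and 9.80 at the top (-2.21 ± 0.41). Ascl2, a transcription factor of these cells, was at 9.44, 10.2, 10.3 and 10.1 at the bottom and dim at the top (-3.38 ± 0.64). Prom1 and Cdca7 differed by -3.08 ± 0.32 and -2.97 ± 0.53. The Wnt feedback gene Axin2 was not called (0.43 ± 0.59): its difference was 1.53 in rats 1 and 2 and near 0 in the other samples (-0.19 and -0.06). Tcf7, which T cells also express, was the member higher at the top (1.19 ± 0.31).

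Of 14 Paneth cell and antimicrobial genes, 5 were higher at the bottom, 1 at the top and 8 were not called (median -0.41; 42.9% called against 34.2% over all genes). The 5 were Defa24, RatNP-3b, Pla2g2a, the protease Mmp7 that activates defensins (-3.54 ± 0.65, dim at the top) and lysozyme, Lyz2, at 16.01, 15.92, 16.74 and 16.47 at the bottom and 15.1 to 15.2 at the top (-1.24 ± 0.20). The lectins Reg3b (0.41 ± 0.58) and Reg3g (1.17 ± 0.45), which absorptive cells also make, were not called, and the member higher at the top was Tff1, a trefoil peptide known from the stomach (3.69 ± 0.59). Goblet cell genes were higher at the bottom for 5 of 9 members, at the top for 1, and 3 were not called (median -0.58). Clca1 (-2.51 ± 0.39) and the mucin-folding protein Agr2 (-2.24 ± 0.26) differed most. The mucin Muc2 itself was at 16.1 to 16.6 at the top and 16.5 to 16.9 at the bottom and was not called (-0.30 ± 0.19). Tff3 (-0.62 ± 0.17) and Fcgbp (-0.58 ± 0.14) lost their call without rats 1 and 2, with -0.45 and -0.44, and the list then had 2 members called at the bottom. The transmembrane mucin Muc13, which absorptive cells carry, was higher at the top (1.89 ± 0.22).

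Of 16 enteroendocrine genes, 3 were higher at the top, 3 at the bottom and 10 were not called (median -0.34). The share called, 37.5%, was near the 34.2% over all genes. Secretin, Sct, was at 13.3, 13.1, 12.9 and 12.8 at the top and at 10.9, 10.9, 9.26 and 10.2 at the bottom (2.88 ± 0.31). Neurotensin, Nts, was at 9.27 to 10.7 at the top and dim at the bottom (3.13 ± 0.56), and cholecystokinin, Cck, differed by 0.80 ± 0.18. Tac1, the substance P precursor of enterochromaffin cells and nerves, was higher at the bottom and dim at the top (-2.68 ± 0.66), as was ghrelin, Ghrl (-0.91 ± 0.20), whose call was lost without rat 4 (-0.63). Without rat 4 the list had 1 member called at the bottom. Gip (0.08 ± 0.21), Sst (-0.18 ± 0.23) and the granin Chga (-0.39 ± 0.20) were not called. None of 7 tuft cell genes was called (median 0.26).

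Of 12 genes of EGF receptor signalling (ligands, receptors and regulators), 8 were higher at the top, none at the bottom and 4 were not called (median 1.42). After Areg, the ligands called were Hbegf, at 11.1, 11.3, 12.1 and 12.2 at the top and 8.44, 8.26, 9.13 and 9.03 at the bottom (2.99 ± 0.38), Nrg1 (2.59 ± 0.34), Ereg (1.26 ± 0.35) and Tgfa (1.05 ± 0.31). Of the receptors, Erbb3 differed by 2.19 ± 0.32 and Egfr by 1.58 ± 0.28, while Erbb2 was not called (0.57 ± 0.27). Errfi1, a feedback inhibitor of the receptors, differed by 2.58 ± 0.19 in a narrow range of 2.51 to 2.65. Egf itself was dim at the top and not called (-1.64 ± 0.71).

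BMP and TGF-β genes were called in both directions. Of 21 genes, 8 were higher at the top, 2 at the bottom and 11 were not called (median 0.73; 47.6% called against 34.2% over all genes). Without rat 4 the count at the top was 4, and without rats 1 and 2 it was 5. The ligand Bmp2 was at 13.7, 13.7, 13.5 and 13.9 at the top and at 11.97, 11.61, 11.54 and 11.92 at the bottom (1.94 ± 0.18), with 1.90, 1.91 and 2.00 in the counted samples. The target and inhibitor Smad7 differed by 2.38 ± 0.23 and the target Id1 by 1.12 ± 0.22. At the bottom stood Grem1 and the ligand Bmp3, which opposes other BMPs (-2.13 ± 0.48); without rats 1 and 2 Bmp3 was not called (-1.50). Bmp4 (0.73 ± 0.32) and the antagonist Nog (0.96 ± 0.85) were not called.

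Of 19 intestinal transcription factors, 9 were higher at the top, 5 at the bottom and 5 were not called (median 0.55). Klf4, a factor of differentiated epithelium, was at 15.3 to 15.7 at the top and 13.3 to 13.7 at the bottom (2.03 ± 0.14), Gata5 differed by 3.03 ± 0.40, Prdm1 by 2.02 ± 0.30 and Maf by 1.78 ± 0.28. Ehf (-3.18 ± 0.61), the posterior homeobox factor Cdx2 (-1.05 ± 0.20) and the proliferation-linked Klf5 (-0.82 ± 0.22) were higher at the bottom; the count at the bottom was 2 without rats 1 and 2. Immediate early genes were higher at the top for 11 of 14 members, with Fos at 15.5, 15.6, 14.5 and 15.5 against 12.6, 12.5, 10.1 and 11.8 (3.73 ± 0.44) and Junb at 2.71 ± 0.26 (list median 1.64). The count was 7 without rat 4. The heat shock gene Hsph1 was higher at the bottom (-1.56 ± 0.21).

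Hypoxia-inducible genes were split: 7 of 20 were higher at the top, 1 at the bottom and 12 were not called (median 0.37; 40% called against 34.2% over all genes). Besides Slc16a3 those at the top were Car9 (3.15 ± 0.35), Adm (2.56 ± 0.75), the oxygen sensor Egln3 (2.20 ± 0.22), Vegfa (2.06 ± 0.28), Epas1, which encodes HIF-2α (1.12 ± 0.14), and Eno1 (0.94 ± 0.16). In the stress list of the endoplasmic reticulum and ATF4, 5 of 16 were higher at the top and 7 at the bottom (median -0.07, and 0.16 with median centring). Trib3 was at 13.01 to 13.72 at the top and 9.85, 8.77, 8.79 and 9.23 at the bottom (4.18 ± 0.29) and Ddit3 differed by 1.38 ± 0.31. The serine synthesis enzymes Psat1 (-2.58 ± 0.42) and Phgdh (-1.94 ± 0.56) and the chaperones Pdia4 (-1.75 ± 0.27) and Sdf2l1 (-1.45 ± 0.22) were higher at the bottom. Of 16 genes of cell death and shedding, 7 were higher at the top and 2 at the bottom (median 0.82), with Dnase1l3 at 2.39 ± 0.28 and the death receptor Fas at 1.65 ± 0.22; without rat 3 the count at the top was 3. Among tight junction genes, 4 of 13 were higher at the top and 2 at the bottom (median 0.32; 46.2% called), and Cldn2, the leaky claudin of crypts, was among the latter (-1.71 ± 0.39).

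Retinoid handling (18.2%) and cholesterol synthesis (20%) had a lower share called than the 34.2% over all genes. Fatty acid oxidation (42.9%), mitochondrial respiration (35%), clock genes (30.8%) and hedgehog and Notch genes (33.3%) were nearer to it. Retinoid handling had 2 of 11 members higher at the top, Rdh7 and Lrat (1.53 ± 0.41), with a median of 0.14 that turned to -0.11 on the deposited scale. Cholesterol synthesis had 2 higher at the top and 1 at the bottom of 15 (median 0.22); the median was -0.89 in rats 1 and 2 and 1.03 in rat 3, and without rats 1 and 2 the count at the top was 7. Fatty acid oxidation had 4 of 14 at the top, Acadm among them (1.86 ± 0.27), and 2 at the bottom (median 0.10), with 2 at the top without rats 1 and 2. Mitochondrial respiration had 7 of 20 at the bottom and none at the top (median -0.21), but with median centring in place of quantile normalisation 5 were called at the top and 1 at the bottom (median 0.25). Clock genes had 4 of 13 at the top (median 0.05, and -0.18 on the deposited scale; 2 at the top without rat 4), and hedgehog and Notch genes 2 of 12 at each end.

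Of 18 T and cytotoxic cell genes, 6 were higher at the top, 1 was higher at the bottom and 11 were not called (median 1.36). The share called, 38.9%, was near the 34.2% over all genes. Gzma was at 13.5, 13.3, 12.5 and 13.2 at the top and at 9.56, 9.62, 7.67 and 9.59 at the bottom (4.06 ± 0.53). The chemokine Ccl5 differed by 3.12 ± 0.41, Cd7 by 2.56 ± 0.40, Lck by 1.62 ± 0.32 and Itgae, the integrin that holds lymphocytes to epithelium, by 1.35 ± 0.35. The receptor chains Cd3e (1.49 ± 0.68) and Cd3d (1.41 ± 0.68) were not called, so their direction is not established. Cd3g, of the same receptor complex, was higher at the bottom (-1.53 ± 0.26). Macrophage and antigen presentation genes were higher at the top for 9 of 16 and at the bottom for 1 (median 0.85), with the class II genes RT1-Ba (1.94 ± 0.26) and Cd74 (1.09 ± 0.23) among them; the count at the top was 5 without rat 3, 4 without rat 4 and 5 without rats 1 and 2. Of 8 B and plasma cell genes, 2 were higher at the bottom and 1 at the top (median -1.13), and the share called, 37.5%, was likewise near that over all genes. Jchain, the joining chain of secreted antibody, was at 15.8, 15.9, 15.9 and 15.7 at the bottom and at 13.7, 13.7, 15.6 and 13.7 at the top (-1.51 ± 0.53). Its top array of rat 3 stood with the bottom arrays, and the call was lost without rat 4 (-1.25) and without rats 1 and 2 (-1.16). The mast cell protease gene Mcpt9 differed by 3.23 ± 0.41, alone among 10 mast cell and eosinophil genes.

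Markers of tissue below the villus varied between the rats at the bottom. Of 20 smooth muscle and stroma genes, 9 were higher at the bottom and none at the top (median -1.18), but the counted samples gave medians of -0.06 (rats 1 and 2), -2.31 (rat 3) and -1.25 (rat 4). The mean level of the list was 12.3 to 12.8 in the top arrays and 12.8, 12.9, 15.3 and 13.7 in the bottom arrays. Without rat 3, 2 of the 20 were called, and without rats 1 and 2, 14. Actg2, an actin of visceral muscle, was at 13.8, 13.7, 17.1 and 15.1 at the bottom and 12.1 to 12.6 at the top (-3.01 ± 0.68; without rat 3 -2.27, not called). Dcn, a proteoglycan of connective tissue, differed by -1.95 ± 0.32. In rats 1 and 2 the fibrillar collagens Col1a1 and Col1a2 were higher at the top by 1.02 and 0.84, and in rats 3 and 4 they were higher at the bottom; neither was called. Nerve and glia genes were higher at the bottom for 4 of 13 (median -1.38), led by the neuropeptide Vip at 11.7, 11.6, 15.4 and 13.8 against 7.90 to 8.92, all dim, at the top (-5.10 ± 0.76), and for 1 without rat 3. With 30.8% called, this list was near the 34.2% over all genes.

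Pancreatic enzyme transcripts were high in the bottom arrays of rats 1 and 2. The mean of 21 acinar genes was 13.8 and 13.8 there, 8.25 and 8.31 in the bottom arrays of rats 3 and 4, and 10.9, 10.9, 8.63 and 9.05 in the top arrays. The trypsinogen gene Prss1 was at 16.04, 15.98, 9.16 and 7.46 at the bottom and at 12.5, 12.8, 8.89 and 9.32 at the top. Only Cela1 of the 21 was called (-2.76 ± 0.54, higher at the bottom in all rats). Their part in the other results was not tested, and the absorptive genes had their smaller differences in the same rats 1 and 2, which also had the lowest stroma levels at the bottom. Without rats 1 and 2, 12 of 12 digestion genes were called at the top and 25 of 28 cell cycle genes at the bottom. Vessel markers were called for 4 of 14 genes at the top and 2 at the bottom (42.9% called; median 0.31, and -0.01 on the deposited scale), with none at the top without rat 3, 1 without rat 4 and 2 without rats 1 and 2. The 5 red cell genes, the 9 Brunner gland and stomach genes and the 8 adipocyte genes had 1, 2 and 2 called at the top and 2, 0 and 1 at the bottom. The shares called were 60%, 22.2% and 37.5%, against 34.2% over all genes. The medians of the first 2 lists, 0.07 and 0.01, turned to -0.17 and -0.20 on the deposited scale. The adipocyte list's Pparg, a nuclear receptor that epithelium also expresses, was at 13.1 to 13.2 at the top and 9.48 to 9.76 at the bottom (3.58 ± 0.24).

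**Figure D4:**
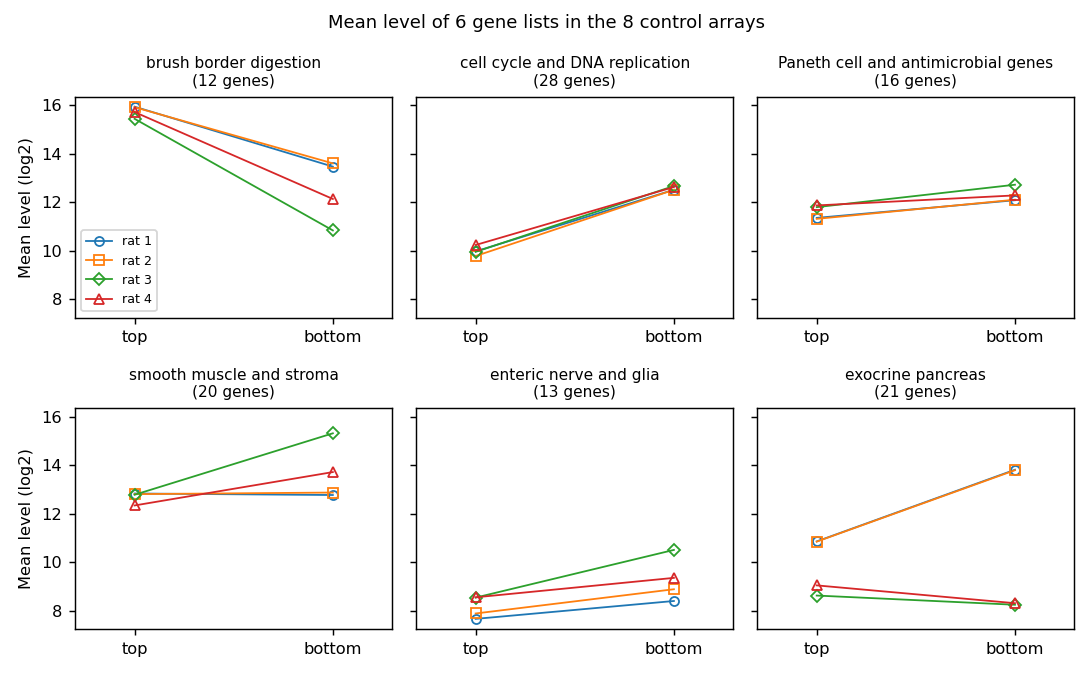
Mean log2 level of 6 gene lists in each of the 8 control arrays, with the segment on the horizontal axis and 1 line and symbol for each rat. The bottom arrays differ between rats for digestion (10.8 to 13.6), stroma (12.8 to 15.3) and pancreas (8.25 to 13.8) and are close for the cell cycle (12.5 to 12.7).

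The villus gradient of the control rats was then set against that of the other 5 groups. Of the 6847 probe sets called in control rats, 6279 (91.7%) had the same direction in the mean of each of the other 5 groups, against 46.6% of all probe sets and 30.9% of those not called. In 4465 (65.2%) the direction was the same in each of the 18 rats, against 20.5% of all. Across called probe sets, which are not independent replicates, the mean gradient of the other groups followed that of the controls with r = 0.939 and a slope of 0.788. The cell cycle list had a median of -2.61 in control rats and -2.56 in the other groups, and the ribosome list -1.84 and -1.93. For digestion the medians were 3.28 and 1.96, for sugar transport 2.70 and 0.73, for peptide transport 2.54 and 0.67 and for fat absorption 2.46 and 1.36.

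**Figure D5:**
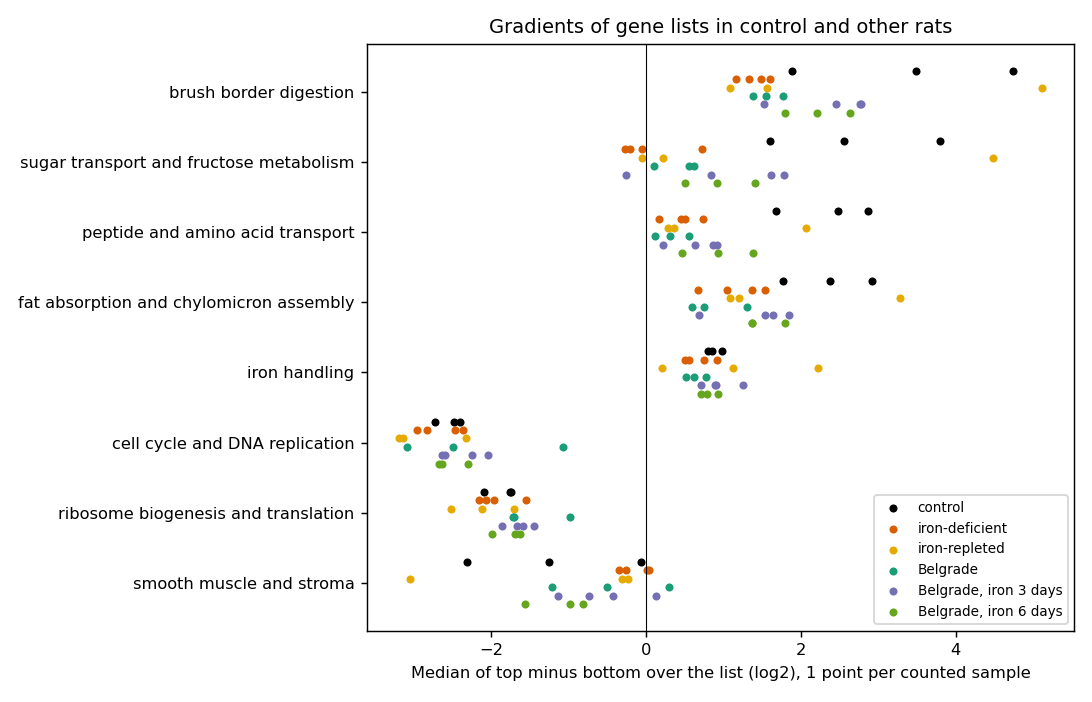
Median log2 difference top minus bottom of selected gene lists in each counted sample (points) of the 6 groups (colours). Cell cycle medians lie between -2.72 and -2.39 in controls and between -3.18 and -1.06 in the other groups, while for sugar transport the control samples (1.603 to 3.80) lie above all others but iron-repleted rat 3 (4.48) and, for rats 1 and 2, a pair of iron-fed Belgrade rats (1.79 and 1.62).

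In a test of the difference itself (limma, same fit), 1 of 26517 probe sets (0.00377%) was called and 2182 had an unadjusted p under 0.05. It was 1377058_at, which has no single gene symbol, with a difference from the other groups of 2.23 ± 0.34 (SE; adjusted p = 0.0385). In control rats it was at 13.5, 13.5, 12.4 and 13.2 at the top and at 11.9, 12.2, 9.27 and 11.2 at the bottom. Its gradient was 2.18 in controls and -0.22, -0.31, -0.28, -0.22 and 0.78 in the other groups. It was not called when control rat 1, 3 or 4 was left out. None of the 30 steepest genes was called in this test with all rats in the fit, so this fit shows none to be steeper or shallower in control rats.

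The count depended on 1 animal of the other groups. Iron-repleted rat 3 had a bottom stroma level of 15.2 and a digestion level of 10.2 at the bottom, the lowest of the other rats, and its sugar transport gradient of 4.48 stood apart from 0.22 and -0.05 in the other rats of its group. Without it, 837 probe sets (3.16%) differed, 597 with a higher value of top minus bottom in controls and 240 with a lower one, and 3511 had an unadjusted p under 0.05. Without both this rat and control rat 3, whose bottom array had the most stroma among the controls, the count was 162, with 91 higher and 71 lower. The control side of that fit was only rats 1 and 2, counted as 1 sample, and rat 4. Its iron-repleted group was rats 1 and 2, so its p-values rest largely on the spread of the other groups. The genes named next were chosen after their values had been seen. Slc43a2, a carrier of neutral amino acids, differed between top and bottom by 2.69 in controls and by -0.05 to 1.11 in the means of the other groups, a contrast of 2.24 without iron-repleted rat 3 (adjusted p = 0.000161, limma) and of 1.85 without both rats (adjusted p = 0.00336). Of the iron genes, 7 of 18 were higher in controls without iron-repleted rat 3 and 4 without both: Slc11a2, Slc40a1, Cybrd1 and Slc46a1. The gradient of Cybrd1 was 4.86 in controls and 2.02, 2.04, 1.78, 3.32 and 2.94 in the other groups, and that of Slc11a2 was 2.42 against 0.43, 0.52, 0.53, 1.15 and 0.97, with iron-repleted rat 3 left out of its group's mean. Of the steepest genes that belong to a list, Areg, Apoa4, Rdh7, Ggt1 and Cda were also higher in controls without iron-repleted rat 3. Without both rats, Apoa4 and Rdh7 stayed called (adjusted p = 0.0167 and 0.0137, limma), while Areg, Ggt1 and Cda did not.

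With all rats in the fit, no member of the digestion, sugar, peptide or fat lists was called in this contrast. For digestion, 10 of 12 members were higher in controls without iron-repleted rat 3 and 0 without both rats. For sugar transport the counts were 7 and 2 of 7, for peptide transport 9 and 5 of 11 and for fat absorption 14 and 3 of 21. Iron-repleted rat 3 was set aside after its digestion and sugar transport values had been seen. Leaving out a rat with steep gradients favours higher counts for these lists, so the counts do not test them. No member of the cell cycle, ribosome or stem cell lists was called in either fit. Of the hypoxia list, 4 genes were lower in controls in each fit, and Pgk1, Slc2a1 and Bnip3 were lower in both. P4ha1 was lower without iron-repleted rat 3 and not called without both rats (adjusted p = 0.0638, limma). The contrast of the glucose carrier gene Slc2a1 was -1.08 without iron-repleted rat 3, from a gradient of 0.16 in controls against 0.91 to 1.67 in the other groups.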

How the data were processed

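RNA of duodenal villus segments was hybridised to Affymetrix arrays, and the deposited values are linear intensities of 31099 probe sets. The authors' summary algorithm and scaling are not given in the sources used here; the mean after trimming 2% at each end was 2501 in 6 and 2876 in 2 control arrays. Here 43.5 (the 10th percentile) was added, log2 taken, and the 44 villus arrays quantile normalised, since their medians spanned 0.932. Control probe sets (57) were dropped, and probe sets above the 40th percentile in at least 3 arrays kept, 26517 of 31042. Symbols came from the platform annotation, updated through RefSeq; 20826 probe sets had 1 symbol, and genes used the brightest.

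The test was limma 3.58.1 in R 4.3.3 (lmFit, eBayes with trend) on within-rat differences of 6 groups sharing 1 spread (20 counted samples, 14 residual and 8.14 prior degrees of freedom), with Benjamini-Hochberg adjustment. Near-identical rats (robust SD under 0.2 in both segments; control and Belgrade rats 1 and 2) were averaged. Pairing came from the labels' rat numbers: within each rat, deviations of top and bottom correlated at 0.0850, 0.0846, 0.127 and 0.181 in the controls. With 3 pairs an exact permutation test cannot go below p = 0.25. The limma p-values rest on the spread shared by the 20 counted samples of 6 groups, not on the 3 control pairs alone.

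Named genes were the iron genes Slc11a2, Cybrd1, Slc40a1, Heph and Tfrc, the 15 at each end with the largest least difference over counted samples among calls shared by 4 rats, and up to 5 members of each list with the smallest p; further members are given as values and were chosen after their values had been seen. Members, lists and tests were chosen with earlier results of these data known. On simulated data with 50 changed probe sets per size, the fit for the control comparison on 26517 probe sets recovered 18%, 60%, 70% and 98% of changes of 1, 2, 3 and 4. Far fewer probe sets were changed there than were called in the data, so these shares do not carry over. The number of arrays limits the precision. Alternatives are in the closing section; the crypt arrays were not used.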

Additional observations from a re-analysis of the deposited data

Results flagged for a closer look

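Probe set 1377058_at had a steeper villus gradient in control rats than in the mean of the other 5 groups, with a difference of 2.23 (limma test of the difference, adjusted p = 0.0385). The gradient was 1.44 in control rats 1 and 2, 3.10 in rat 3 and 2.00 in rat 4. The control group, with 3 counted samples, was too small for a check for single outlying samples.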

How the results depend on the processing

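The count of 6847 called probe sets stayed within 1.5 times under every alternative run: 8248 with all 22 rats counted separately, 7606 on the deposited scale, 6661 with median centring, 7521 with control rats alone, and 4838 to 8136 without a single rat. Without the replicate block, that is with the pairing by rat ignored, it was 5859, and digestion then had 11 of 12 members called. The probe sets called kept their sign in all settings except the deposited scale (6846 of 6847) and median centring (6781 of 6847). Settings that change only the spread, the filter or the other groups leave the control difference as it was. In those settings the sign could not change, so its agreement is no check.

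The contrast with the other groups, with 1 call, gave 196 with all rats counted separately, 68 on the deposited scale, 255 with median centring, 837 without iron-repleted rat 3 and 162 without both that rat and control rat 3, the last 2 chosen after seeing the data. Leaving out 1 rat gave 0 to 837. For these changes the cause was not tested. Values that changed sign were Alas2 (-0.17 on the deposited scale, -0.07 without rat 2, -0.14 without rat 4, up to 0.24 without rat 3), Mcpt1 (0.028 with median centring), and Fabp4 (-0.14) and Gnat3 (-0.13) without rats 1 and 2; none of them was called. With 3 counted samples, changes of 2-fold were recovered for 18% of simulated probe sets. The simulation changed only 50 probe sets per size and gave 129 calls, against 6847 in the data. Adjustment was therefore stricter there, and the 18% does not carry over to the data. How many small gradients were missed in the data was not measured.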
